A study of Mus musculus with 12 samples.

Results

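The baseline transcriptome of mouse embryonic stem (ES) cells was described from the 4 single-colour control arrays, of 12 arrays in the series. The arrays were chosen by their titles alone, as the EGFP control replicates 1 to 4, and no knockdown sample was used. The cells were of the E14 line, an established line of mouse ES cells from the inner cell mass of the early embryo. Each control received esiRNA against EGFP, a jellyfish gene without a mouse counterpart, at 0.33 ng/ul with Lipofectamine 2000 for 72 hr, so all 4 arrays show transfected cells and untransfected cells were not analysed here. The esiRNA is a pool of short RNAs made by cutting a long double-stranded RNA. Total RNA of each culture was amplified, labelled with Cy3 and hybridised to a mouse array of 60-base probes. The series' design text calls the replicates biological. All came from 1 cell line, and any p-value below measures only the spread between these samples.

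Each array held 43379 spots that are not controls, and 41174 different probes that name 27670 genes. The level used throughout is the scanner software's processed signal, a brightness after background subtraction, and a spot was called detected where the software marked it well above background. Between 57.8% and 64.7% of the spots were detected per array. The dimmest detected spot read 20.01 to 25.9, while the 153 negative control spots of an array had medians of 4.22 to 5.99. Replicates 1 and 3 lay on one slide (slide 2) and replicates 2 and 4 on another (slide 3). The array medians were 99.4 and 98.7 on the former and 67.5 and 68.4 on the latter. Signals in the text are as read, in the order of replicates 1 to 4, so the slide 3 arrays are dimmer for most genes. Comparisons of spread use log2 levels set relative to each array's 75th percentile. Replicate 3 stands apart from the other arrays: it is the only array with saturated spots (41), and probes rich in G and C read higher on it, as shown further on. A probe's brightness also depends on its sequence, so levels are given as percentiles of all genes on these arrays (100 being the brightest) and do not rank transcript numbers. Errors are SD over the 4 arrays (n = 4) unless stated.

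ES cells self-renew while they can form every tissue of the embryo. In serum culture they are held in this state by leukaemia inhibitory factor (LIF), which acts through the kinase JAK and the transcription factor STAT3, and by a circuit of transcription factors around Oct4 (Pou5f1), Sox2 and Nanog. They divide fast with a short G1 phase, keep an open chromatin rich in remodelling complexes, and show low levels of many genes of later lineages.

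The sequences that the results on brightness and on replicate 3 turn on are 5 array probes, printed 5′ to 3′ as the files give them, with runs of at least 5 G or C bases in capitals. The first 3 belong to the brightest probes of the arrays, and the last 2 are the probes of Grin2d and Syn1 that were far brighter on replicate 3. Grin2d was chosen after its values were seen.
Pigt, probe A_51_P338803: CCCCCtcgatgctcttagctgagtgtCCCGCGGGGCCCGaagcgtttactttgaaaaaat
Ptprz1, probe A_52_P527944: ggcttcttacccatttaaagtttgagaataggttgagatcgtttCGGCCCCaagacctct
Lars2, probe A_51_P314501: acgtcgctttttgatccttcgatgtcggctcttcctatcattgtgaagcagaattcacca
Grin2d, probe A_51_P157154: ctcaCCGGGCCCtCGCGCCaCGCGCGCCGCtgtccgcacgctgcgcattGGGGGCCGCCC
Syn1, probe A_52_P482360: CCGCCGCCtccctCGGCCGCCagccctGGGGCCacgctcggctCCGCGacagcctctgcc

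All 5 ES cell markers were detected on all 4 arrays and lay in the brightest 10% of the genes. Pou5f1, the POU factor Oct4, read 46154, 33065, 45486 and 36679 on replicates 1 to 4 (percentile 97.4). Its probe is on chromosome 17 at 33612047 to 33612107 of build mm7. Sox2, its HMG-box partner, read 16093, 12085, 16205 and 12405 (percentile 93.1). The homeobox factor Nanog read 20128, 15175, 17899.9 and 15986 (percentile 94.2). These 3 genes of the core circuit were brighter on replicates 1 and 3 than on 2 and 4, the same split as the array medians, and after scaling their SDs were 0.05, 0.03 and 0.08 on the log2 scale. Klf4, a reprogramming factor downstream of STAT3, read 53151, 41731, 56634 and 40406. Zfp42 (Rex1), a zinc finger gene of naive ES cells, read 113992, 105790, 113960 and 114256, and its second probe 83024, 61598, 74242 and 63136. The brighter Zfp42 probe lacked the split by slide, which gave it the largest SD of the 5 markers (0.20).

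Markers of other cell types that the culture could hold stood at lower percentiles as groups. The 5 ES cell markers had a median percentile of 97.4 and a summed signal of 207846 to 250184 per array. Of the feeder fibroblast markers, 5 of 10 were detected on all 4 arrays, with a median percentile of 41.7 and a summed signal of 3129 to 4133. The matrix genes Postn, Dcn and Lum and the homeobox gene Prrx1, which mark fibroblasts, were detected on no array. Thy1, a surface protein of fibroblasts and neurons, was the brightest of that list at 1314 ± 163, and the collagen gene Col1a1 read 1106 ± 143. A longer fibroblast list, which adds cytoskeletal and matrix genes that other cells also express, had 18 of 26 detected at a median percentile of 58.1. Its brightest members were Vim (vimentin, percentile 94.8), Acta2 (smooth muscle actin, 92.9) and the secreted matrix-associated protein gene Ccn2 (92.7), so Vim stood above Nanog and Sox2 by percentile. For primitive endoderm, 4 of 8 markers were detected (median percentile 45.3, summed signal 599.6 to 834), among them Gata6 at 231 ± 29.4 and Sox17 at 115 ± 22.6, whereas Afp and Ttr, which encode secreted yolk sac proteins, were detected on none. The trophectoderm list had 5 of 6 detected (summed signal 4057 to 5254), the mesoderm list 4 of 6 (345 to 513) and the neural ectoderm list 5 of 7 (4845 to 6464). Both of the larger sums rested mostly on cytoskeletal genes, the keratin Krt7 at 3571 ± 461 and the neuronal tubulin Tubb3 at 4982 ± 743. Cdx2 and Eomes, the transcription factors of trophectoderm, read 327 ± 39.8 and 198 ± 27.02. In bulk RNA, fewer cells of a type and less RNA per cell cannot be told apart.

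**Figure D1:**
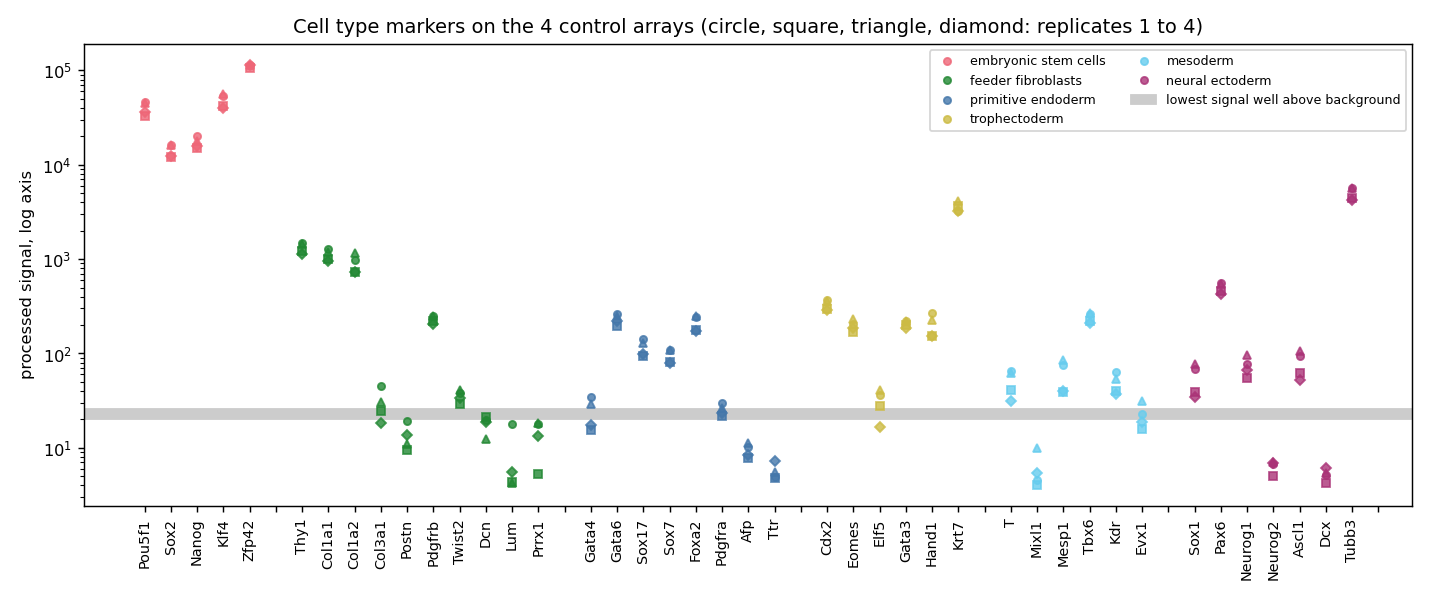
Processed signal (log axis) of the cell type markers on the 4 control arrays, 1 symbol shape per replicate and 1 colour per cell type; the grey band is the range of the lowest signal called well above background on the 4 arrays. The 5 ES cell markers, at percentiles of 93.1 to 99.2, lie above the other markers plotted. Members of the longer lineage lists that are not plotted, such as Krt18, overlap them.

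Over the whole array, 15643 of 27670 genes (56.5%) were detected on all 4 arrays, 9432 (34.1%) on none and 2595 on 1 to 3. By class, the machinery for making protein was the brightest. Of the cytosolic ribosomal protein genes 82 of 83 were detected on all 4 arrays, with a median percentile of 99.6 and 77 of them in the brightest 5% of genes. The exception, Rpl3, is bright at percentile 99.8, but its spots on replicates 1 and 3 were flagged as outliers and left out. Among the 20 brightest genes were Rps18 at 449037 ± 79522, Rpl7a at 427369 ± 45510.5, Rps14 at 424412 ± 94289, Rps16 at 411254 ± 132190 and Rpl8 at 399015 ± 69375, all structural proteins of the ribosome. Rps16 owed its wide SD to replicate 3, which read 608591 against 334280 to 363570 on the others. Rps23, Rpl5, Fau, Rps2, Rpl41 and Rpl37a, from the same organelle, were also among the 20. The translation elongation list followed with 19 of 20 detected (median percentile 99.5), led after Fau by Eef1g, a subunit of elongation factor 1, at 285256 ± 40397. All 53 initiation factors were detected at a median percentile of 95.3, as were all 17 aminoacyl-tRNA synthetases (93.6) and all 77 mitochondrial ribosomal proteins (92.6).

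The 3 brightest probes were not those of ribosomal genes. Pigt, a subunit of the enzyme that attaches GPI anchors, read 519846, 446286, 705068 and 530754 by the probe printed above. Its other probe, A_52_P215093, read 149, 102, 142 and 83.3. Ptprz1, a receptor tyrosine phosphatase of glia, read 499903, 428930, 613858 and 455841 by the printed probe, and its other 3 probes had means of 208, 46.4 and 4.35, the last not above background on any array. Lars2, the mitochondrial leucyl-tRNA synthetase, has 1 probe, which read 493993, 442577, 630419 and 584063. The bright Pigt and Ptprz1 probes thus disagree with the other probes of their genes, and for Lars2 no second probe exists. Whether these 3 probes bind other RNAs was not tested. Disagreement between probes was common: over the 3056 genes with at least 3 probes the brightest was 25.02 times the dimmest in the median. The 5 genes whose probes differed most were Ptprz1, the ribosomal gene Rps2 (means of 329726 and 15.9), Syn1 (205790 and 4.34), the glucose transporter Slc2a3 (78103 and 4.44) and the aldose reductase Akr1b3 (75350.1 and 4.54).

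Genes that ES cells are known for stood at high percentiles, below the ribosomal genes as groups, with single genes among the brightest of the array. Dppa5a, an RNA-binding protein of early embryos and ES cells, was the sixth brightest gene and read 369026, 390081, 443354 and 490171. Relative to each array's 75th percentile this probe was higher on replicates 2 and 4 (8.67 and 8.97 on the log2 scale) than on 1 and 3 (8.16 and 8.47). Its other probe, at 134805, 106955, 144305 and 109233, was brighter on replicates 1 and 3, as the array medians were. The files place this other probe on chromosome 5 and the brighter probe on chromosome 9. All 27 genes of the list of Dppa genes and ES-associated transcripts were detected, at a median percentile of 95.3. They include Tdh, the threonine dehydrogenase on which mouse ES cells depend, at 148946 ± 9920.3, and Dnmt3l, the cofactor of de novo DNA methylation, at 78274 ± 9400.1. Dppa2 read 11805 ± 1707, Dppa4 10238 ± 1619 and Dppa3 (Stella) 2144 ± 333. Of the core and naive pluripotency factors, 27 of 28 were detected (median percentile 91.1). The exception, Zfp281, was bright on the 3 arrays where its spot was kept (percentile 89.9) and its replicate 3 spot was left out as an outlier. Klf2, a Krüppel-like factor of naive cells, was the brightest of the list and read 146408, 120073, 556678 and 141768, saturated on replicate 3. Without that array its lowest and highest values were 120073 and 146408. Esrrb, an orphan nuclear receptor, read 12793 ± 2195, Tbx3 10550.1 ± 1425, Klf5 9928 ± 1513, Nr0b1 (Dax1) 18963 ± 2416, Sall4 10921 ± 1988 and Tfcp2l1 7460.0 ± 766. Utf1, a chromatin-bound factor of ES cells, had the largest SD after Zfp42 among the unsaturated genes of the list, at 7631, 4666, 7660.2 and 5355 (SD 0.15).

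**Figure D2:**
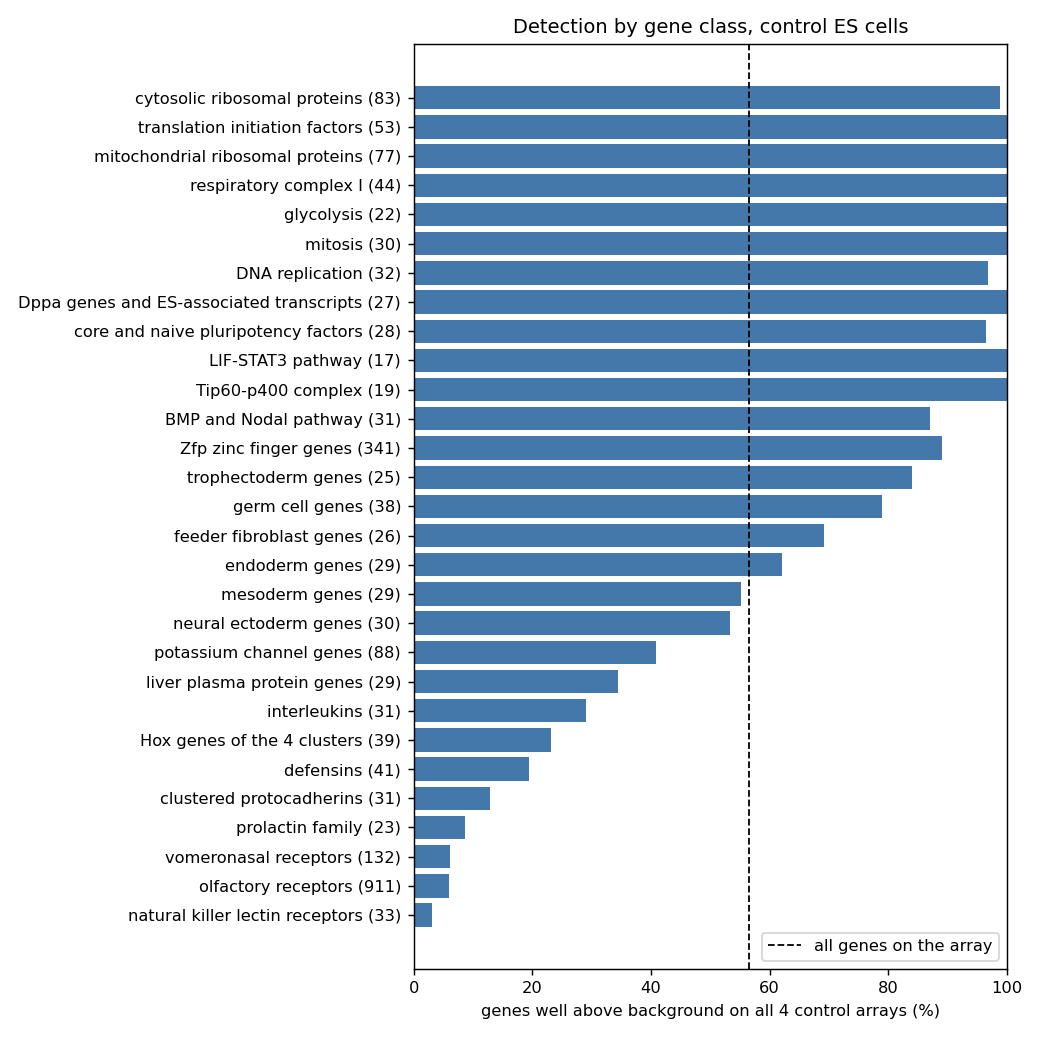
Percentage of the genes of each class that were well above background on all 4 control arrays. The number of genes on the array is in brackets and the dashed line is the share over all genes, 56.5%. Over protein-coding genes alone that share was 70.2%. Classes for protein synthesis, energy, division and pluripotency lie at or near 100%, lineage lists on both sides of the line, and receptor, immune and placental families far below it.

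The signalling pathways that hold or release the ES cell state were detected from receptor to target. All 17 LIF-STAT3 genes were detected. The receptor subunits read 671 ± 143 for Lifr and 2850.1 ± 342 for Il6st (gp130), the kinase Jak1 3591 ± 390.5 and Stat3 5478 ± 1019.9. The feedback inhibitor Socs3, a STAT3 target, stood at percentile 97.1 (36669.5 ± 7701), the highest of the list after Klf4. In the BMP and Nodal list 27 of 31 were detected. The ligand Nodal read 13593 ± 2616, its co-receptor Tdgf1 (Cripto) 29492 ± 4271 and its feedback inhibitor Lefty1 29554 ± 5738, while Bmp4 read 1552 ± 274 and the BMP targets Id1 and Id3 7162 ± 1199.9 and 3129 ± 503. The ligand Bmp2 and the antagonist Grem1 were detected on no array. In the FGF-ERK list 27 of 28 were detected, with the ERK phosphatase Dusp6 at 23184 ± 2421 and the receptors Fgfr1 and Fgfr2 at 629.9 ± 115 and 343 ± 41.6. In the Wnt list 28 of 30 were detected. Ctnnb1 (beta-catenin) read 20347 ± 3656 and the repressor Tcf7l1 (Tcf3) 6624 ± 1567, while the target Axin2 read 393 ± 61.2 and the ligand Wnt5a was detected on no array. Among Wnt ligands as a family 10 of 19 were detected and among FGF ligands 10 of 21, with Wnt7b at 683 ± 168 and Fgf18 at 3119 ± 550.1 the brightest. These shares, 52.6% and 47.6%, are close to or below the 56.5% over all genes and below the 70.2% of protein-coding genes.

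Genes of cell division, metabolism and protein folding were detected nearly without exception. All 30 mitosis genes were detected at a median percentile of 95.2, led by Cdc20, the activator of the anaphase-promoting complex, at 118692 ± 20574. Of the DNA replication genes 31 of 32 were detected (95.3), with the helicase subunit Mcm6 at 120529 ± 10831 and the clamp Pcna at 102420 ± 12561. Among G1 regulators, all 23 were detected at a lower median percentile (76.8). Ccne1 (cyclin E1) stood at 85212 ± 12301 and the D-type cyclin Ccnd1 read 3182 ± 401. The inhibitors Cdkn1a (p21), Cdkn1b (p27) and Cdkn2a (p16 and p19) read 1395 ± 284, 332 ± 53.7 and 137 ± 39.7. Other members of the list stood the other way. The D-type cyclins Ccnd2 and Ccnd3 had means of 5398 and 9144, and the inhibitors Cdkn1c and Cdkn2d of 6726 and 2980. Ccne2 (cyclin E2) and the kinase Cdk2 had means of 625 and 417. All 22 glycolysis genes were detected (96.1). Aldoa (aldolase A) was among the 20 brightest genes at 405568 ± 54103, and Ldha (lactate dehydrogenase A) read 153152 ± 18233. Respiratory complex I (44 of 44), ATP synthase (17 of 17), the chaperonin CCT (9 of 9) and the heat shock proteins (23 of 23) were all at median percentiles of 95.9 to 98.4. Cytochrome c oxidase had 16 of 18, and its members detected on no array were Cox4i2 and Cox8b, subunits of lung and muscle isoforms. The tissue isoform Cox6a2 of the same complex read 120.2 ± 39.99.

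Chromatin genes were likewise detected and stood at high percentiles. All 19 genes of the Tip60-p400 complex, a histone acetyltransferase and remodeller, were detected at a median percentile of 87.3. Its catalytic subunits Kat5 (Tip60) and Ep400 (p400) read 2897, 2134, 2899 and 2557 and 3556, 2459.6, 3662 and 2676, and the ATPase Ruvbl1 80303 ± 18697. All 30 genes of the BAF, CHD and NuRD remodellers were detected (89.3), as were all 24 of DNA and H3K9 methylation (88.1), including Trim28 (KAP1) at 93341 ± 19580.5, Dnmt3b at 16669 ± 2962 and Tet1 at 2309 ± 430.3. Of the Polycomb genes 28 of 29 were detected, with Epop at 57325 ± 9559.5, Eed at 21678 ± 2773 and Ezh2 at 9205 ± 1044. Phc3 was detected on no array. Among histones 34 of 41 were detected, and H2aj and H2ac1 were among the 20 brightest genes of the array at 374332 ± 170064 and 322544 ± 57997. The H2aj probe read highest on replicate 3 (628097, against 310093 at most on the others). Grn (progranulin), also among the 20, did the same at 286091, 235064, 653069 and 301976. The telomere list was complete at 18 of 18, with the telomerase RNA Terc at 349.9 ± 100.4 and the reverse transcriptase Tert at 444 ± 163.

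Genes of RNA interference and of microRNA processing were also detected. Of 22 genes listed for both, 19 were matched on the array, and all 19 were detected (median percentile 79.7). Drosha, the nuclease of microRNA precursors, stood at percentile 98.1 (56427 ± 8817), Ago2, the slicing Argonaute, at percentile 91.8 (11335 ± 2101) and Dicer1, which cuts double-stranded RNA, at percentile 79.7 (2643 ± 454). Of the p53 list 30 of 31 were detected (83.98), and Trp63, a p53 relative of epidermis, on no array. Trp53 itself read 5468, 4032, 5075 and 3015, lowest on replicate 4, with an SD of 0.22 among the largest of its list. Its targets Aen, a nuclease of apoptosis, and Bax, a pore-forming death protein, read 52374 ± 6647 and 21518 ± 2994, and Mdm2, the ligase that degrades p53, 5184 ± 769. ES cells grow as epithelial colonies, and 31 of 32 junction genes were detected, with Ctnna1 (alpha-catenin) at 66881 ± 5902 and Cdh1 (E-cadherin) at 13974 ± 1386. Pkp1, a plakophilin of stratified epithelia, was detected on no array.

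Lists for later lineages stood at middling percentiles, and each had members that were not detected on all 4 arrays. Of the endoderm genes 18 of 29 were detected on all 4 arrays (median percentile 52.8), of the mesoderm genes 16 of 29 (45.2), of the neural ectoderm genes 16 of 30 (47.3) and of the trophectoderm genes 21 of 25 (60.2). Beside 56.5% over all genes, the mesoderm and neural shares (55.2% and 53.3%) are close to that of the array. Beside the 70.2% of protein-coding genes, these and the endoderm share (62.1%) are lower and the trophectoderm share (84%) is higher. T (Brachyury), the mesoderm factor, read 64.5, 40.9, 61.9 and 31.6, close to the lowest detected signal. The neural factor Pax6 read 498 ± 63.2, Sox1 55.1 ± 21.2 and the epiblast factor Otx2 542 ± 84.3. Some members stood far higher, such as the homeobox gene Gbx2 at percentile 84.2 (4337 ± 775) and the basement membrane laminin Lamc1 at percentile 96.1 (26008 ± 4496). The keratins Krt18 and Krt8 of simple epithelia read 53400.3 ± 5410.4 and 35592 ± 7617. Germ cell genes were detected for 30 of 38 (60.8), with Tex19.1, which restrains retrotransposons, at 54222 ± 6089 and Stra8, a gene of meiotic entry, at 11571 ± 1785. Genes of the 2-cell stage were detected for 13 of 15, and Zscan4c, which is known to be expressed in a small share of ES cells at a time, read 19503 ± 2882 over the bulk. Rhox5, an X-linked homeobox gene of testis and placenta, read 51579.7 ± 5162.

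Imprinted and sex-linked genes gave a mixed pattern. Of the imprinted genes 25 of 28 were detected, with the maternally expressed Phlda2 at 33922 ± 2593 and Meg3 at 20045 ± 3569, and the paternally expressed Mest and Igf2 at 20011 ± 2004 and 5922 ± 976. H19, the maternal RNA next to Igf2, read 109.7 ± 30.6. Xist, the RNA that coats an inactive X chromosome, has 4 probes and was detected by none on any array (9.16, 7.64, 10.6 and 11.3 for the brightest), while its antisense Tsix read 196 ± 26.3. These are separate probes, and whether each is specific for its strand was not tested. The Y-linked Eif2s3y read 3986, 3135, 3682 and 2891 and Ddx3y 432, 307, 379 and 295, so both Y-linked genes were detected on all arrays. Kdm5d and Uty, also Y-linked, were detected on none.

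The families with the fewest detected genes were sensory receptors, natural killer lectin receptors, clustered protocadherins and placental genes. Of the olfactory receptors 55 of 911 genes were detected on all 4 arrays and 707 on none, against 56.5% and 34.1% of all genes. The brightest of those detected on all 4, Olfr279 and Olfr985, read 516 ± 135 and 493 ± 59.2. Olfr571 read 5072, 2808 and 2814 on replicates 1, 2 and 4, and its spot on replicate 3 was left out as an outlier. Vomeronasal receptors were detected for 8 of 132 (on no array 109), with Vmn1r46 at 596 ± 88.1, and taste and trace amine receptors for 3 of 20 (on no array 13). Natural killer lectin receptors were detected for 1 of 33, the single gene being Klrg2 at 87.5 ± 23.2. Placental prolactins were detected for 2 of 23 genes and the pregnancy-specific glycoproteins, also made by the placenta, for 0 of 8. Clustered protocadherins, the cell identity code of neurons, were detected for 4 of 31 (on no array 24). Here Pcdhga7 departed from its cluster at 3948 ± 684. Interleukins (9 of 31), chemokines (11 of 35), type I interferons (4 of 13) and defensins (8 of 41) were detected for a minority. These shares depend on the detection rule. Where a spot only had to be positive and significant against background, the share of olfactory receptors detected on all 4 arrays was 21.5% in place of 6.04%, that of vomeronasal receptors 16.7% in place of 6.06%, and that of pregnancy-specific glycoproteins 37.5% in place of 0. The defensive genes Bst2 and Irf1 nevertheless read 21748 ± 3019.6 and 15725 ± 3102, within an interferon and nucleic acid sensing list of which 23 of 36 were detected.

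Hox genes, which pattern the body axis and are held silent by Polycomb in ES cells, were detected for 9 of 39 (on no array 23) at a median percentile of 32.9. By the looser detection rule the share was 51.3% in place of 23.1%. Hoxc4, which helps pattern the neck and upper trunk, read 247 ± 89.2. Transport and channel families lay between: solute carriers 246 of 363, potassium channels 36 of 88 and cytochrome P450 genes 30 of 77. Over all genes the share was 56.5%, and over protein-coding genes 70.2%. The zinc finger genes named Zfp were detected for 304 of 341, far above the share of the array. Genes of liver (10 of 29), pancreas and gut (12 of 28), blood (12 of 35) and synapses (13 of 30) were mostly undetected or dim. Alb (albumin) read 4.73, 4.24, 4.94 and 5.92, at the level of the negative control spots. Single genes of these lists and of the muscle and endothelium lists stood out by their probes: the T cell kinase Lck at 3061 ± 600.1, the liver protein Ahsg at 815 ± 114, the fast muscle myosin light chain Mylpf at 13701 ± 1954 and the endothelial factor Egfl7 at 6972 ± 1311. The keratin-associated protein Krtap4-6 read 83919.8 ± 7798 by a probe of 70% G and C, while 26 of the 41 genes of its family were detected on no array.

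Detection followed the type of gene and the base composition of its promoter. Of the protein-coding genes 70.2% were detected on all 4 arrays, of the long non-coding RNAs 25.6%. By chromosome, the autosomes ranged from 61.7% to 77.9% of protein-coding genes, chromosome X had 65.04% and chromosome Y 4 of 16. Promoters were taken from RefSeq on build GRCm38.p6 for 14728 of the 18434 protein-coding genes, as the 250 bases before the start. The ratio of observed to expected CpG dinucleotides, which is high in CpG islands, was computed for each. Where that ratio was at most 0.2, 28.5% of 2762 genes were detected on all 4 arrays and 55.9% on none. Over 0.4 to 0.6 the detected share was 75.7%, and above 1 it was 94.04% of 1292 genes. Among detected genes the median signal also went up over these bins, from 243 to 2999.8.

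Printed below are the 250 bases before the start of 5 genes, 3 from the ends of this range and the markers Zfp42 and Pou5f1 between them, 5′ to 3′ along the gene, with each CpG in capitals.
Rps18, chr17:33955666-33955915, minus strand: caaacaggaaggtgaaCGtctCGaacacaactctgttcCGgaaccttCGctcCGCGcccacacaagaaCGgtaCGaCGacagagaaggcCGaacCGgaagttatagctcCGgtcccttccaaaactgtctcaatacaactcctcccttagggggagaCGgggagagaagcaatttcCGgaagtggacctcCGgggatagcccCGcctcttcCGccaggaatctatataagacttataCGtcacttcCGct
Zfp42, chr8:43307010-43307259, minus strand: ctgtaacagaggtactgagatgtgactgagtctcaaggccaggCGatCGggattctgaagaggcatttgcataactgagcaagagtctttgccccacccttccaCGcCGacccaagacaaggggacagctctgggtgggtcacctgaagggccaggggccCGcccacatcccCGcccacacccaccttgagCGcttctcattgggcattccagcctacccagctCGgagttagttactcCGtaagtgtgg
Pou5f1, chr17:35505782-35506031, plus strand: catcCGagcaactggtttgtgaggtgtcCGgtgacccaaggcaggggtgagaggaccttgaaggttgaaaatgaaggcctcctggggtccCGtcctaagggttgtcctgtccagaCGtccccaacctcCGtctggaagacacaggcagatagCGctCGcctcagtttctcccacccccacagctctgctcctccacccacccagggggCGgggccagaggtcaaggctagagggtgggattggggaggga
Afp, chr5:90490464-90490713, plus strand: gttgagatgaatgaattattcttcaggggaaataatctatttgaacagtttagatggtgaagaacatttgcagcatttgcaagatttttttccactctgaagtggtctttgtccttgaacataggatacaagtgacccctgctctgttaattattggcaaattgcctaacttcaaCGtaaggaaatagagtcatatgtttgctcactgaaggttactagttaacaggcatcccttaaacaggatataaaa
Olfr1, chr11:73399496-73399745, minus strand: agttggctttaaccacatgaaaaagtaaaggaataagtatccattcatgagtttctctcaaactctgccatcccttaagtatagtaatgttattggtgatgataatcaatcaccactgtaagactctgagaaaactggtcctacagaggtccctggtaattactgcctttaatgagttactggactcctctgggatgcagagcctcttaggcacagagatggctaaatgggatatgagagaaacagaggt

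The bright ribosomal gene Rps18 has 19 CpGs in this window and a ratio of 1.04. The markers Zfp42 and Pou5f1, bright as they are, have ratios of 0.42 and 0.33, and Nanog has 0.18, so these 3 genes are detected at high percentiles from the lower 3 bins of the range. The markers Sox2 and Klf4 were not examined in this way. Afp, detected on no array, has 1 CpG and the olfactory receptor Olfr1, likewise undetected, has 0. In all, 6 short motifs were searched on both strands of the windows, and a window may hold several. The core of ETS factor sites, CCGGAAG, was found in 13.5% of the 10373 genes detected on all 4 arrays and in 1.97% of the 3194 detected on none, against 10.2% of all. Of the 62 ribosomal protein genes 30.6% held it. The GC box, GGGCGG, was found in 59.4% and 17.6%. The TATA box, TATAAA, ran the other way, at 6.95% of detected and 22.7% of undetected genes, and 39.6% of the 768 olfactory receptors held it. The shares of the CCAAT box were closer (36.6% and 34.6%). The E-box CACGTG was found in 8.46% and 3.82%, and the CREB motif TGACGTCA in 2.74% and 0.845%. The windows differ in base composition, with a median of 60% G and C in detected and 46.4% in undetected genes, and its part in these shares was not tested.

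**Figure D3:**
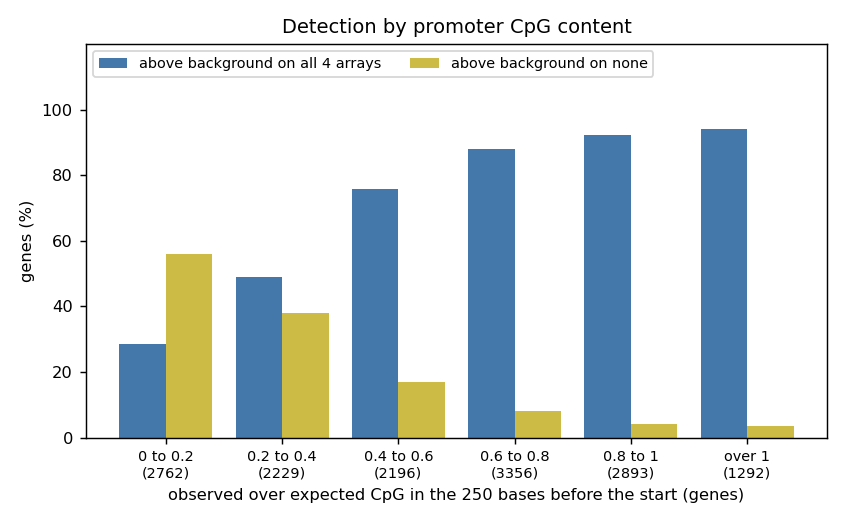
Percentage of protein-coding genes well above background on all 4 control arrays (blue) and on none (yellow), by the observed over expected CpG ratio of the 250 bases before the start; the number of genes is in brackets. The detected share rises from 28.5% in the lowest bin to 94.04% in the highest.

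Probe composition also went with detection. Of the probes with at most 30% G and C, 22.01% were detected on all 4 arrays, and of those with 55 to 60%, 78.9%. The median signal of these groups was 5.47 and 238. Whether probe or promoter composition carries the differences in detection was not tested.

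Most genes varied little between the 4 control cultures. Over the 15597 genes whose brightest probe was detected and unsaturated on all 4 arrays, the median SD of the log2 level was 0.10, a factor of 1.07. With the genes in 10 equal groups by brightness, the SD was 0.19 in the dimmest group (median signal 54.05) and 0.08 in the brightest (35884). For 153 probes spotted 10 times on each array, the SD was 0.05 within an array and 0.09 between arrays in the median. It was larger between arrays for 113 of them. The SD within an array is that of single spots and the SD between arrays that of averages over spots, so they are unlike measures. Of the pairs of arrays, replicates 2 and 4 differed least (SD of the log2 difference over probes 0.19) and replicates 2 and 3 most (0.32). Genes of the smallest spread included Bex3, a neurotrophin receptor adaptor, at 97249, 72292, 94289 and 73447, the vitamin K reductase Vkorc1l1 at 3967, 2946, 3844 and 2990.5, the peptidase Cndp2 at 5658, 4162, 5432 and 4249, the glutathione genes Gstz1 and Gsr, the magnesium transporter Nipa1 and the mitochondrial ribosomal gene Mrpl19. Their signals follow the arrays' 75th percentiles, to which all levels were scaled. Among classes, the median SD over the measured members was 0.07 for the pluripotency factors, 0.07 for Polycomb genes, 0.07 for the remodellers and 0.07 for the proteasome. The detected members of the neural ectoderm and endoderm lists had the same median SD, 0.07 for each. Ribosomal proteins were at 0.13 and histones at 0.15. The largest class medians were those of families near background: olfactory receptors 0.31 over the 54 genes that could be measured, type I interferons 0.50 over 4 and the prolactin family 0.44 over 2.

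**Figure D4:**
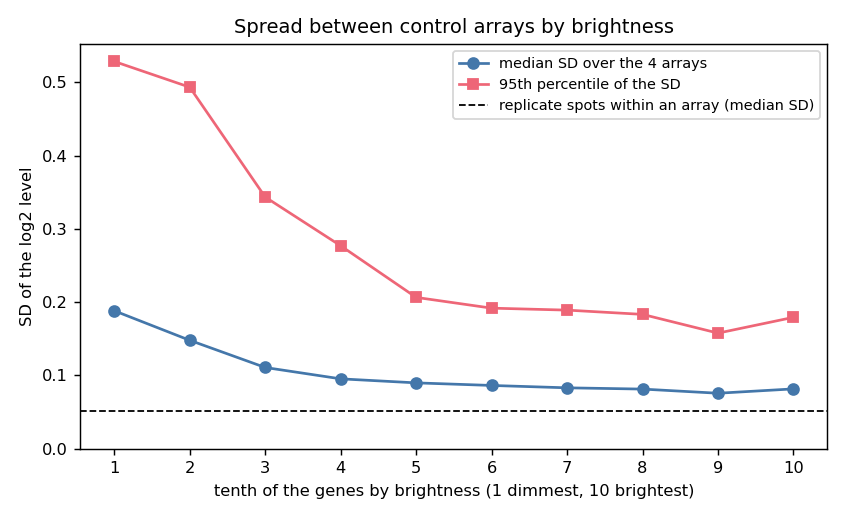
SD of the log2 level over the 4 control arrays in 10 equal groups of the 15597 genes from the dimmest (1) to the brightest (10), as the median (circles) and the 95th percentile (squares); the dashed line is the median SD of replicate spots within an array, 0.05. The median falls from 0.19 in the dimmest group to 0.09 in the fifth and changes little above it.

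An SD above 0.5 was reached by 248 genes (1.59%), and by 156 when replicate 3 was left out, of which 123 were the same genes. Replicate 3 stood apart for most of the 15 genes of largest SD. Iqcd, an IQ-motif protein, had the largest SD (2.63) and read 5775, 3779, 129.7 and 3518, and Ppp3ca, a catalytic subunit of calcineurin, read 3987, 2989.8, 171 and 2916. Map3k13 (411, 426, 34.4 and 384), Zfp101 (828, 586, 64.6 and 593) and the Ras effector Rin2 (771, 622, 109 and 575) were low on replicate 3 in the same way, and all 5 of these spots lie in rows 524 to 532 at the bottom of the array. Without replicate 3 the SDs of these 5 genes were 0.16, 0.03, 0.25, 0.04 and 0.08. In the opposite direction, Hsf1, the heat shock transcription factor, read 44404, 18840.4, 436114 and 18428 by its brightest probe, whereas its other 2 probes read 3448, 2539, 3483 and 2583, and 674, 422, 708 and 440.0. The cytokine receptor Il3ra (2278, 1427, 24585 and 1622), the homeobox gene Tlx2 (285, 168, 2075 and 157) and the peptidylarginine deiminase Padi1 (505, 252, 2459 and 399) were also high on replicate 3. A smaller set of dim genes was instead high on replicates 1 and 3, the arrays of slide 2: Llcfc1 (274, 39.9, 126 and 26.7), Ifnab (257, 35.1, 117 and 37.5), Lalba (295, 80.9, 643 and 132) and Sox14 (165, 53.3, 290.2 and 42.7).

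The high values of replicate 3 went with the G and C content of the probe. Each array was compared with the median of the other 3, over 23277 probes detected on all arrays. On replicate 3 the median difference was -0.04 (log2) for probes of 30 to 35% G and C, 0.13 at 50 to 55%, 0.54 at 70 to 75% and 2.10 above 75%, where 10 of 14 probes were more than 2-fold high. On replicate 1 the medians of all bins lay between -0.10 and 0.04. On replicate 2 the median was -0.20 above 75% G and C, its lowest. On replicate 4 the lowest was -0.22 at 70 to 75%, and above 75% it was -0.04. Of the 135 probes above 60% G and C, 31 (22.96%) were more than 2-fold high on replicate 3, against 0.622% of the probes up to 60%. The 2 printed examples show the size: Grin2d, an NMDA receptor subunit whose probe is 81.7% G and C, read 2319, 1476, 590303 and 1852, and the Syn1 probe, of the synaptic vesicle protein synapsin 1, read 44705, 35057, 705066 and 38332. Both printed probes were saturated on replicate 3. Of the other 3 Syn1 probes, A_51_P420684 read 106, 72.8, 83.9 and 63.9 and the remaining pair was not above background on any array. The 41 saturated spots had a median of 66.7% G and C and were spread from row 4 to row 523 of 532. The spots that were more than 2-fold low on replicate 3 were placed differently: 17 of 20 lay in the last 10 rows, which hold 263 of the probes. Replicate 1, on the same slide, had 6 of its 16 low probes there, against 0 of 48 on replicate 2 and 0 of 41 on replicate 4. Of the probes more than 2-fold high, 3 of 5 on replicate 2 and 3 of 13 on replicate 4 lay in these rows. On replicates 1 and 3 this held for 0 of 75 and 1 of 175. What made replicate 3 differ was not tested.

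**Figure D5:**
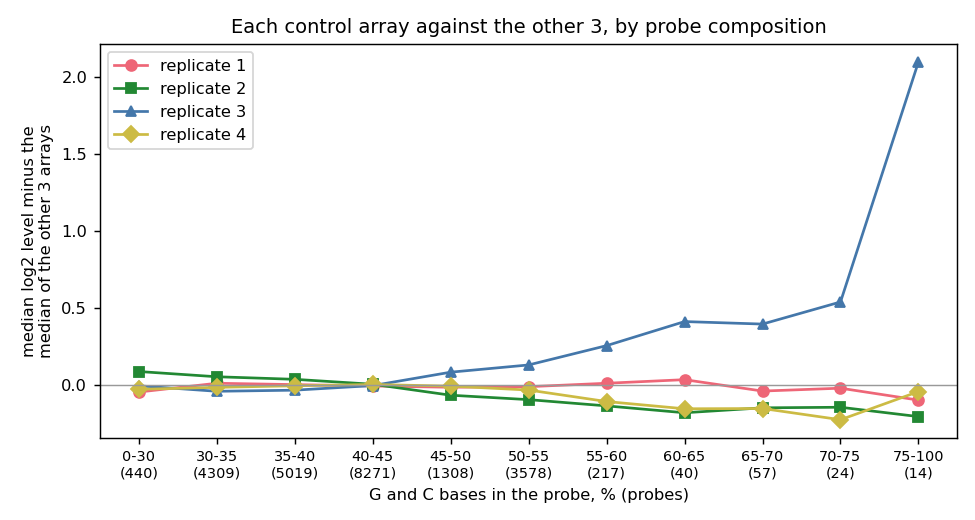
Median over probes of the log2 level of each control array minus the median of the other 3 arrays, in bins of the percentage of G and C bases in the probe; the number of probes well above background on all 4 arrays is in brackets. Replicate 3 rises to 2.10 in the last bin, which holds 14 probes. Above 45% the medians of replicates 2 and 4 are all below 0. Up to 45% those of replicate 2 are above 0, and those of replicate 4 run from -0.03 to 0.004.

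Where a gene has several probes, variation can be checked by each of them. Among 5509 genes with at least 2 usable probes, 23 had an SD above 0.25 by every probe, and for 16 of these the probes also moved together (r above 0.5 across the 4 arrays). This selection was made after the values were seen. Actb, the cytoplasmic beta-actin, was the brightest of the cases described here. Its probe on chromosome 5 read 1212, 1639, 1306 and 1668 and the one that the files place on chromosome X read 8754, 11660, 9745 and 10678. After scaling, the Actb level relative to the gene's own mean was -0.45, 0.40, -0.27 and 0.32, so both probes were higher on replicates 2 and 4. The nuclear RNA Malat1, seen by 4 probes, deviated by -0.21, 0.43, -0.07 and -0.16, with replicate 2 the highest. Cartpt, a neuropeptide gene near background, deviated by 0.27, -0.45, 0.51 and -0.33, with replicates 1 and 3 the higher.

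The slide splits the control arrays 2 against 2, and it was tested with limma (slide 3 minus slide 2, 2 arrays each, two-sided, with Benjamini-Hochberg adjustment). Of 15597 genes, 96 (0.616%) passed an adjusted p of 0.05, 88 (0.564%) lower on slide 3 and 8 (0.0513%) higher. Of the olfactory receptors, 6 of the 54 tested were lower and 0 higher, with a median difference of -0.45. The genes that were lower were dim, with a median signal of 86.8 against 1161 over all genes tested, and 62 of the 88 lay under 100. The largest difference was that of Hbq1b, a theta globin, which fell from 159 and 118 on slide 2 to 35.8 and 36.005 on slide 3 (-1.54 ± 0.13 SE on the log2 scale, limma adjusted p = 0.028). The transcription factor Ikzf4 (-1.47 ± 0.17), the germ cell and embryo gene Tcl1b2 (-1.37 ± 0.14), the peptidase Ace (-1.33 ± 0.15), the olfactory receptor Olfr43 (-1.24 ± 0.10), the potassium channel Kcng1 (-1.17 ± 0.09) and the melanocortin receptor Mc4r (-1.10 ± 0.08) also fell. Named genes that were higher on slide 3 were Ppp1r3d, a glycogen-targeting subunit of a phosphatase (1.37 ± 0.16), the La protein gene Ssb (0.80 ± 0.10) and Lmbr1 (0.63 ± 0.08). None of the 5 ES cell markers passed: their differences ran from -0.03 to 0.34 and the smallest limma adjusted p was 0.166. The calls depend on the scaling: after quantile normalization 0 genes passed in limma (1973 at an unadjusted p under 0.05), with arrays scaled to their median 52 passed (19 higher and 33 lower). Without replicate 1 or 3 the counts were 608 and 252, and without replicate 2 or 4 limma called 0 genes (1410 and 1669 at an unadjusted p under 0.05). Slide also coincides with array position and overall brightness here, so these cannot be told apart.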

How the data were processed

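The 4 control arrays were scanned and read with Agilent Feature Extraction 9.5.1.1, per the file headers. The deposited intensity (processed signal) is background-subtracted and detrended within each array, with low values replaced by a surrogate and no scaling between arrays. The authors' deposited value table of the same arrays holds log2 values whose scaling is not given in the sources used here, with column medians of 7.27, 7.265, 7.27 and 7.27. It served only as an alternative. Steps from there used Python 3.11.15 with pandas 2.3.3, and R 4.3.3 with limma 3.58.1.

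Outlier spots, by the software's own flags, were dropped, and repeated spots of a probe were averaged. A gene was described by its brightest probe and counted as detected on an array where any of its probes was. Of 41174 probes, 22951 were named by accession, 6659 by symbol and 3109 by an older symbol through the RefSeq gene table, and 8455 kept the name in the files. Probe positions are those of build mm7 in the files, and promoters are RefSeq's on GRCm38.p6. Levels were log2 of the signal minus the array's 75th percentile. The slide test took genes detected and unsaturated on all 4 arrays and was tested on simulated data. Only 4 arrays limit the precision.

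The members and lists were chosen with earlier results of these data known. Named genes were the 5 markers, the 20 brightest, the 15 of largest and 10 of smallest SD, the 10 largest slide differences each way, the brightest, most variable or undetected members of each class, and the 5 genes whose probes differ most. Some were left out for length. A few others, such as Grin2d, Actb and Olfr571, and the members named for their role in a pathway, were chosen after their values were seen. Alternatives covered the detection rule, the outlier spots, the probe of a gene, the scaling, the background correction, the dim-probe filter and each array left out.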

Additional observations from a re-analysis of the deposited data

Results flagged for a closer look

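A value was picked out where 1 of the 4 arrays lay far from the others, by Dixon's test on the gap to the nearest array, at a level where chance picks about 1 group in 20. Of the 169 genes tested, 17 were picked out (10.1%), and replicate 3 was the outlying array for 12 of them. These genes include the 15 of largest SD, and Grin2d and Syn1, which were named for their probe values, so their share and the part of replicate 3 in it were favoured by the choice. Over all 15597 genes measured on all arrays, replicate 3 was the outlying array for 1.63% of genes, replicate 2 for 1.56%, replicate 4 for 1.05% and replicate 1 for 0.942%. The number of saturated spots was 41 on replicate 3 and 0 on each other array.

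Levels here are log2 relative to each array's 75th percentile. On replicate 3 the level was low for Tdgf1 at 4.61 (the others 4.75 to 4.77), Iqcd at -3.26 (the others 1.85 to 2.16) and Ppp3ca at -2.86 (the others 1.58 to 1.64). It was also low there for Map3k13 at -5.18 (the others -1.66 to -1.17), Zfp101 at -4.27 (the others -0.72 to -0.64) and Rin2 at -3.52 (the others -0.76 to -0.62). It was high on replicate 3 for Rps14 at 8.76 (the others 8.48 to 8.49), Ruvbl1 at 6.36 (the others 6.05 to 6.10) and Il3ra at 4.30 (the others 0.57 to 0.82). Replicate 3 was high as well for Tlx2 at 0.73 (the others -2.64 to -2.18), Grin2d at 8.89 (the others 0.62 to 0.92) and Syn1 at 9.14 (the others 5.11 to 5.29). Replicate 1 was the outlying array for Ahsg at -0.51 (the others -0.44 to -0.43). Replicate 2 was the outlying array for Thy1 at 0.35 (the others 0.18 to 0.21) and Pax6 at -1.05 (the others -1.21 to -1.19). Replicate 4 was the outlying array for Trp53 at 1.62 (the others 2.02 to 2.08) and Meg3 at 4.07 (the others 4.18 to 4.19). The Trp53 value is that of its brightest probe, and the mean over its 2 probes was highest on replicate 3. The cause of these single-array differences was not tested.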

How the results depend on the processing

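The count of genes detected on all 4 arrays stayed within 1.5 times under each alternative run, and was 15659 to 16372 with 1 array left out. The count detected on none was 9489 to 9856 with 1 array left out, but 4955 where a spot only had to be positive and significant against background, a looser rule. The median SD moved between 0.09 and 0.10 with 1 array left out and was 0.08 to 0.13 under the other scalings, background corrections and within slides. The slide result depended most on the processing. Beside 96 genes, limma called 52 with arrays scaled to their median (19 higher and 33 lower on slide 3), 3 after normexp, 1 from the authors' value table and 235 over genes detected on at least 2 arrays. It called 0 after quantile normalization, 0 without a filter and 0 against a fold of at least 1.5, where 1973, 4625 and 110 genes had an unadjusted p under 0.05. With probes of at most 45% G and C, chosen after seeing the data, 38 genes passed. With 1 array left out the count ran from 0 to 608, being 608 without replicate 1, 252 without replicate 3 and 0 without replicate 2 or 4, each leaving a lone array assumed to vary like the other slide's pair. The cause of these changes was not tested. In simulated data the slide test recovered 39% of log2 differences of 1 and 0% of 0.5, so most differences of these sizes were missed in that setting. Each gene's simulated spread was its SD over all 4 arrays, which includes any slide difference. In the median this SD was 0.10, against 0.08 within slides, so the shares recovered may not carry over to the real arrays. Signals near background limit the dim families, and the detected share left its exact binomial interval for 25 of 78 classes under the looser detection rule. Brightness percentiles of classes moved for 54 of 78 with the median over a gene's probes, 38 with the authors' value table and 32 with normexp. No paired analysis was possible because the arrays form 1 group.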

Other observations

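Further families for RNA processing, protein turnover, cell shape and lipid synthesis were detected nearly without exception. Of the splicing snRNP proteins 21 of 21 were detected on all 4 arrays (median percentile 96.3), of the heterogeneous nuclear ribonucleoproteins 19 of 20 (95.7), of the proteasome subunits 44 of 46 (95.3), of the cytoskeleton genes 29 of 29 (97.0) and of the cholesterol synthesis genes 22 of 22 (90.1). Hnrnpab, an RNA-binding protein, read 242912 ± 16183, the tubulin Tubb5 195535 ± 32964 and Hmgcs1, an early enzyme of the cholesterol pathway, 25643 ± 2496. Transcription factor families showed few bright members. Among Sox genes 15 of 23 were detected (65.2%, against 56.5% of all genes and 70.2% of protein-coding genes). After Sox2 the highest was Sox13 at 819.6 ± 123. Among forkhead genes 24 of 42 were detected, a share of 57.1% that is close to that of all genes and below that of protein-coding genes. They were led by Foxh1, the partner of Nodal-activated Smad proteins, at 5466, 2795, 6679 and 2947. Foxh1 had the joint largest SD of the family (0.42). Among Rhox genes 6 of 8 and among Pramel genes 6 of 14 were detected, with Pramel13 at 8871 ± 1187.

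Genes of structural and secreted proteins were detected in part, with shares that differed between lists. Of the MHC genes 20 of 36 were detected, with the class I gene H2-K1 at 6655 ± 777 and the class II genes H2-Aa and H2-Ea on no array. That share, 55.6%, is close to the 56.5% over all genes and below the 70.2% of protein-coding genes. Members of the MHC class I family share sequence, so their values may be mixed. In the longer fibroblast list Vim read 19359 ± 1261 and Acta2 13602 ± 1137. Of the muscle genes 26 of 31 were detected at a median percentile of 52.3, and of the endothelium genes 16 of 20. These shares, 83.9% and 80%, are above both the 56.5% of all genes and the 70.2% of protein-coding genes. Lower than both were the keratins at 17 of 46 (37.0%) and the serpins at 15 of 55 (27.3%). The orphan G protein-coupled receptors at 22 of 73 (30.1%) and the caseins and crystallins at 8 of 20 (40%) were also lower. The chaperone of collagen, Serpinh1, read 10718 ± 1105, and Gpr160 was the brightest orphan receptor at 2461 ± 415.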
